A study of Homo sapiens with 12 samples.

Results

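The taxane-resistant sublines Du145-DtxR and Du145-CbzR were pooled and compared with the Du145-P cells they came from. The members are the 6 libraries of that comparison, 2 from each line, out of 12 in the series, assigned to lines by their labels. Du145 is an established human prostate cancer line. Du145-P denotes the parental cells, which were passaged alongside the selected ones. Du145-DtxR cells had survived repeated 72 h exposures to docetaxel, and Du145-CbzR cells had survived the same scheme with cabazitaxel. Doses doubled from 1 nM up to 125 nM, with a recovery and a passage between exposures. All 3 lines were kept in the same medium with serum and antibiotics, and whether drug was present when RNA was taken is not given in the sources used here. The other 6 libraries are Du145-DtxR cells given a control siRNA (siControl) or an siRNA against BRPF1 (siBRPF1) for 24 h, with RNA taken 48 h after its removal, and they serve below only as an independent readout of the same genes.

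Taxanes bind the beta subunit of tubulin inside microtubules and hold them in the assembled state, so that cells stall in mitosis. Among the routes to resistance known from cultured cells are efflux of the drug by P-glycoprotein, the product of ABCB1, a changed supply of tubulin isotypes, and tolerance of the mitotic block. Cells selected with either taxane often resist the other one. The average of both lines against the parent asks which part of the transcriptome the selections have in common, and the difference between the lines asks whether a common change is of the same size.

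Each line is a single derived population, and no source used here says whether its 2 libraries came from separate cultures. The p-values therefore describe the spread between these libraries, which may be technical, and not between independent selections. Library totals lay between 27512422 and 30593573 estimated counts. Transcripts of the mitochondrial genome took 14.3% and 15.3% of the counts in the parental libraries, and less in every resistant one (8.91% and 9.48% for Du145-DtxR, 12.1% and 12.7% for Du145-CbzR). KRT8, KRT18 and EPCAM, which mark epithelial cells, were present in every library, with a summed level of 353 to 379 CPM (read counts scaled to the TMM-adjusted library size, per 1e6 counts) in Du145-P and of 354 to 451 CPM in the resistant lines. The prostate genes KLK3 and KLK2 had at most 1 count in a library. The 4 leukocyte markers summed to at most 0.365 CPM and the 3 endothelial ones to at most 0.398 CPM. Of 5 fibroblast markers, LUM and DCN had at most 1 count in a library, while the collagens COL1A1 and COL3A1 were expressed and gave sums of 22.2 to 23.6 CPM in Du145-P, 2.17 to 2.99 CPM in Du145-DtxR and 26.0 to 26.7 CPM in Du145-CbzR. Among neuroendocrine markers INSM1 had 0 counts throughout and CHGA at most 2 in a library, while SYP was at 7.30 to 8.28 CPM in the parental libraries and at 1.87 to 2.62 CPM in the resistant ones.

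Of 18218 genes tested in 1 fit that kept the 3 groups apart, 555 (3.05%) were higher and 1770 (9.72%) were lower on average in the resistant lines, at an adjusted p under 0.05 in edgeR's quasi-likelihood test and a log2 fold change above 1 or below -1. Such genes are called DEGs here. In a bulk library, fewer cells that express a gene and less RNA per cell cannot be told apart. An average can come from 1 line alone, and most of these did. Among the 555 higher genes, 198 were DEGs in the same direction in both lines, 252 in Du145-DtxR only, 100 in Du145-CbzR only and 5 in neither. Among the 1770 lower genes, the numbers were 624, 863, 273 and 10. The 198 genes higher in both lines were 1.09% of the genes tested, 16.4% of the DEGs higher in Du145-DtxR and 29% of those higher in Du145-CbzR. The 624 lower in both were 3.43% of the genes tested, 24.9% of the lower DEGs of Du145-DtxR and 43.5% of those of Du145-CbzR. With the shared ones included, the DEGs of Du145-DtxR made up 6.62% (higher) and 13.8% (lower) of all genes, and those of Du145-CbzR 3.74% and 7.88%. Both contrasts use the same 2 Du145-P libraries, so these shares are given as counts and nothing was read from them. When the 4 resistant libraries were entered as 1 group, so that the distance between the lines counted as error, the average gave 100 higher and 303 lower genes. Of the 171 genes picked for naming, 92 lost their call in that fit, 8 changed sign and 71 were unchanged. Those that lost it include EREG, EGF, COL6A1, THBS1, BMF, BCL2L1, TP53I3 and GADD45A. Counts of list members that stayed called as 1 group, given below, use the adjusted p without the fold limit. The share of all genes passing in that way is not given, so these counts are descriptions only. With transcripts of the mitochondrial genome left out before scaling, an alternative chosen after seeing the data, there were 550 higher and 1796 lower genes.

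A change was called of similar size when the gene was a DEG on average and in each line in 1 direction, and the 95% interval of the Du145-CbzR minus Du145-DtxR difference lay within 0.5 on the log2 scale. This held for 25 higher (0.137% of the genes tested) and 43 lower genes (0.236%). The criterion favors genes with many counts, since a narrow interval is needed: the median CPM, which also grows with transcript length, in the higher group was 58.1 for the 25 genes and 24.7 for the 43, against 3.35 and 3.18 for all genes higher or lower in both lines. The farther bound of the interval was -0.49 for SAMD4A, the last higher gene inside, and -0.51 for the first outside, which has no symbol. For lower genes it was -0.48 for IFIT2, the last inside, and -0.50 for DDX60, the first outside. With the margin set at 1, 78 higher and 142 lower genes passed, and with the estimate alone held within 0.5, 91 and 210 did. In the direct test of Du145-CbzR against Du145-DtxR, 31.2% of all genes passed as higher and 31.8% as lower at an adjusted p under 0.05. Of the 198 higher genes, the lines differed for 93, with the larger change in Du145-DtxR for 60 and in Du145-CbzR for 33. Of the 624 lower genes they differed for 315, with the larger change in Du145-DtxR for 244 and in Du145-CbzR for 71.

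**Figure D1:**
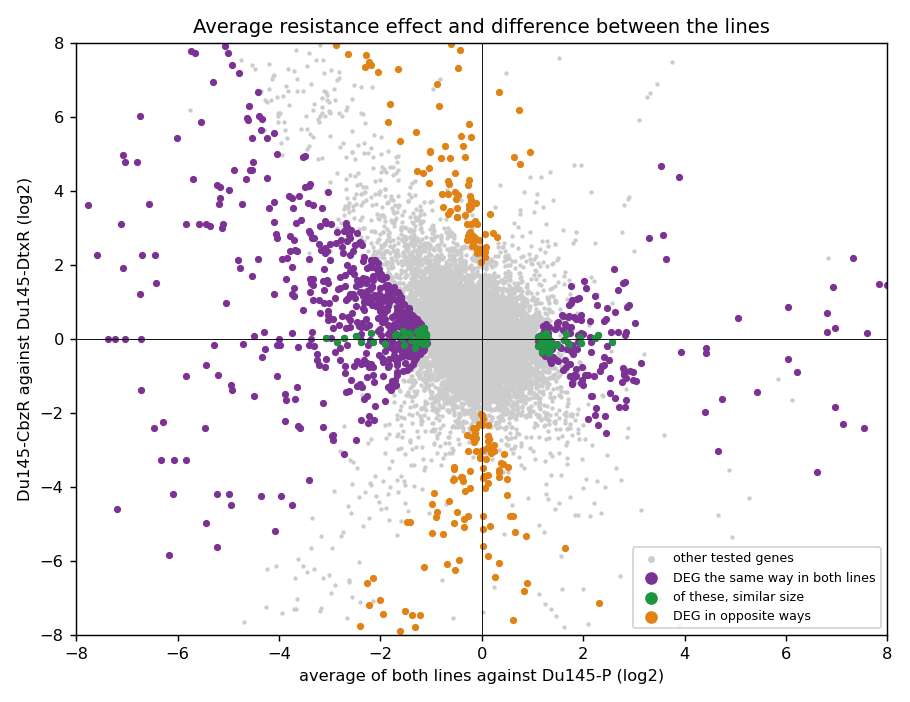
Each point is 1 tested gene, with the average log2 change of both resistant lines against Du145-P on the horizontal axis and the log2 difference of Du145-CbzR against Du145-DtxR on the vertical axis. The 822 genes (4.51% of those tested) that were DEGs the same way in both lines flank the center, the 68 (0.373%) of similar size lie along the horizontal line, and the 238 that were DEGs in opposite directions lie mostly above and below the origin. The 112 genes beyond 8 on either axis are not drawn, and fitted values of genes with a group at 0 counts depend on the prior count.

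Among the genes raised to a similar size were 2 glycosyltransferases, a growth factor, an immediate early transcription factor and a chaperone of the cytosol. ST8SIA6, a sialyltransferase that adds sialic acid to sialylated glycans, measured 2.79 and 2.85 CPM in Du145-P, 17.2 and 17.4 CPM in Du145-DtxR and 17.5 and 15 CPM in Du145-CbzR. Its average log2 fold change was 2.57 ± 0.11 (SE) with an adjusted p of 3.32e-09, and the lines differed by -0.085 ± 0.092 (95% interval -0.29 to 0.12). GCNT2, which makes branched I antigen chains, stood at 15.1 and 14.7 CPM in Du145-P, 47.3 and 56 CPM in Du145-DtxR and 48.5 and 45.3 CPM in Du145-CbzR. Every resistant library was above every parental one for both enzymes, and the ranges of the 2 resistant lines overlapped. The rule for similar-size genes makes such a separation nearly certain, here and below, so it adds no evidence. The average change of GCNT2 was 1.73 ± 0.081 (adjusted p = 8.36e-09), with an interval of -0.31 to 0.036 for the difference between the lines.

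MARCHF4, a membrane-bound ubiquitin ligase, rose from 16.9 and 17.8 CPM in the Du145-P libraries to 81 and 81.9 CPM in Du145-DtxR and 89.7 and 86.3 CPM in Du145-CbzR, an average of 2.29 ± 0.056 (adjusted p = 5.92e-11). DCBLD2, a transmembrane protein with a discoidin domain, had 103 and 105 CPM in Du145-P, 429 and 406 CPM in Du145-DtxR and 382 and 395 CPM in Du145-CbzR, an average of 1.95 ± 0.046 (adjusted p = 5.44e-11). Both genes were raised about as much in either line, as the rule requires, with intervals for the difference of -0.0029 to 0.23 and -0.21 to 0.0019. CLGN, which encodes calmegin, a chaperone of the endoplasmic reticulum related to calnexin, had 6.14 and 6.04 CPM in Du145-P, 23.1 and 23.1 CPM in Du145-DtxR and 22.9 and 24.9 CPM in Du145-CbzR, an average of 1.95 ± 0.076 (adjusted p = 2.13e-09). RAB3B, a small GTPase of secretory vesicles, had 124 and 126 CPM in Du145-P, 400.0 and 377 CPM in Du145-DtxR and 392 and 373 CPM in Du145-CbzR, an average of 1.62 ± 0.047 (adjusted p = 2.06e-10). Here too, as the rule makes nearly certain, the resistant libraries lay together and apart from the parental pair. The intervals were -0.11 to 0.21 for CLGN and -0.13 to 0.086 for RAB3B.

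EGR1, a transcription factor induced within minutes of mitogen or stress signaling, had 15.9 and 14.8 CPM in Du145-P, 49.9 and 42.5 CPM in Du145-DtxR and 49.7 and 52.6 CPM in Du145-CbzR, an average of 1.66 ± 0.079 (adjusted p = 1.02e-08). BDNF, the neurotrophin that activates the receptor TrkB, had 29 and 27.7 CPM in Du145-P, 78 and 76.5 CPM in Du145-DtxR and 72.2 and 70.4 CPM in Du145-CbzR, an average of 1.39 ± 0.052 (adjusted p = 1.41e-09). HSPA8, the constitutive cytosolic chaperone HSC70, had 365 and 371 CPM in Du145-P, 911 and 1128 CPM in Du145-DtxR and 842 and 859.8 CPM in Du145-CbzR, an average of 1.34 ± 0.072 (adjusted p = 2.85e-08). For HSPA8 the lines differed by -0.26 ± 0.078 (adjusted p = 0.012), a difference within the margin that nevertheless passed the test, and the second Du145-DtxR library was the highest. CCN2, a secreted matricellular protein, had the same feature, with 59.1 and 59.5 CPM in Du145-P, 173 and 178 CPM in Du145-DtxR and 158 and 153 CPM in Du145-CbzR, an average of 1.48 ± 0.044 (adjusted p = 2.44e-10) and a difference of -0.17 ± 0.046 (adjusted p = 0.0056). The other 15 genes of this group rose on average by 1.11 or more on the log2 scale and include the secreted proteins CCN1 and DKK1, the receptor TNFRSF12A, the tubulin TUBB2A and the ribosome assembly factor RPF2, named after their values were seen.

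The genes lowered to a similar size included enzymes of arginine and steroid metabolism, a hypoxia-inducible factor and a receptor of the Notch pathway. ASS1, argininosuccinate synthase, through which cells make arginine from citrulline, fell from 149 and 156 CPM in Du145-P to 20.3 and 15.5 CPM in Du145-DtxR and 17.1 and 19.2 CPM in Du145-CbzR. Its average was -3.08 ± 0.074 (adjusted p = 5.71e-11) and the lines differed by 0.020 ± 0.11, with an interval of -0.22 to 0.26. AKR1C3, an aldo-keto reductase that converts androstenedione to testosterone, had 15.5 and 14.4 CPM in Du145-P, 1.98 and 2.25 CPM in Du145-DtxR and 2.01 and 1.98 CPM in Du145-CbzR, an average of -2.86 ± 0.11 (adjusted p = 1.74e-09) and an interval of -0.45 to 0.28. The AKR1C genes are near copies of each other, so reads can be split among them. On average AKR1C2 fell by 2.90 on the log2 scale, and AKR1C1, AKR1C2 and AKR1C3, neighbors on chromosome 10, were DEGs lower in both lines.

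EPAS1, which encodes HIF-2 alpha, had 101 and 96.1 CPM in Du145-P, 17.9 and 16.5 CPM in Du145-DtxR and 19.5 and 16.8 CPM in Du145-CbzR, an average of -2.48 ± 0.062 (adjusted p = 7.46e-11) and an interval of -0.12 to 0.27. NOTCH1, a receptor of cell-to-cell signaling, had 24.4 and 25 CPM in Du145-P, 7.65 and 6.91 CPM in Du145-DtxR and 7.53 and 8.38 CPM in Du145-CbzR, an average of -1.70 ± 0.073 (adjusted p = 4.47e-09) and an interval of -0.094 to 0.35. No resistant library came near a parental one for either regulator, which the rule again makes nearly certain. NES, the intermediate filament protein nestin, had 21.4 and 19.7 CPM in Du145-P, 4.70 and 4.84 CPM in Du145-DtxR and 4.29 and 4.78 CPM in Du145-CbzR, an average of -2.14 ± 0.086 (adjusted p = 2.50e-09). GNG11, a gamma subunit of G proteins, had 29.4 and 29.3 CPM in Du145-P, 5.59 and 5.95 CPM in Du145-DtxR and 5.65 and 5.26 CPM in Du145-CbzR, an average of -2.39 ± 0.069 (adjusted p = 2.06e-10). These 2 fell about as far in each line, as the rule requires, with intervals for the difference of -0.35 to 0.20 and -0.31 to 0.15.

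SUSD2, a membrane protein with a sushi domain, had 9.29 and 10.3 CPM in Du145-P, 1.47 and 1.44 CPM in Du145-DtxR and 1.53 and 1.46 CPM in Du145-CbzR, an average of -2.72 ± 0.13 (adjusted p = 9.88e-09). In each resistant library SUSD2 was at less than 2 CPM. C1QTNF6, a secreted protein of the C1q and TNF family, had 55.6 and 55.4 CPM in Du145-P, 11.2 and 11.7 CPM in Du145-DtxR and 13.5 and 12.3 CPM in Du145-CbzR, an average of -2.19 ± 0.059 (adjusted p = 1.18e-10). YBX2, a nucleic acid-binding protein known from germ cells, had 17.8 and 17.6 CPM in Du145-P, 5.33 and 4.51 CPM in Du145-DtxR and 4.32 and 4.68 CPM in Du145-CbzR, an average of -1.91 ± 0.092 (adjusted p = 1.10e-08). MFSD12, needed for the import of cysteine into melanosomes and lysosomes, had 427 and 447 CPM in Du145-P, 135 and 121 CPM in Du145-DtxR and 136 and 139 CPM in Du145-CbzR, an average of -1.72 ± 0.047 (adjusted p = 1.44e-10). The other 33 genes fell by 1.10 or more on the log2 scale.

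**Figure D2:**
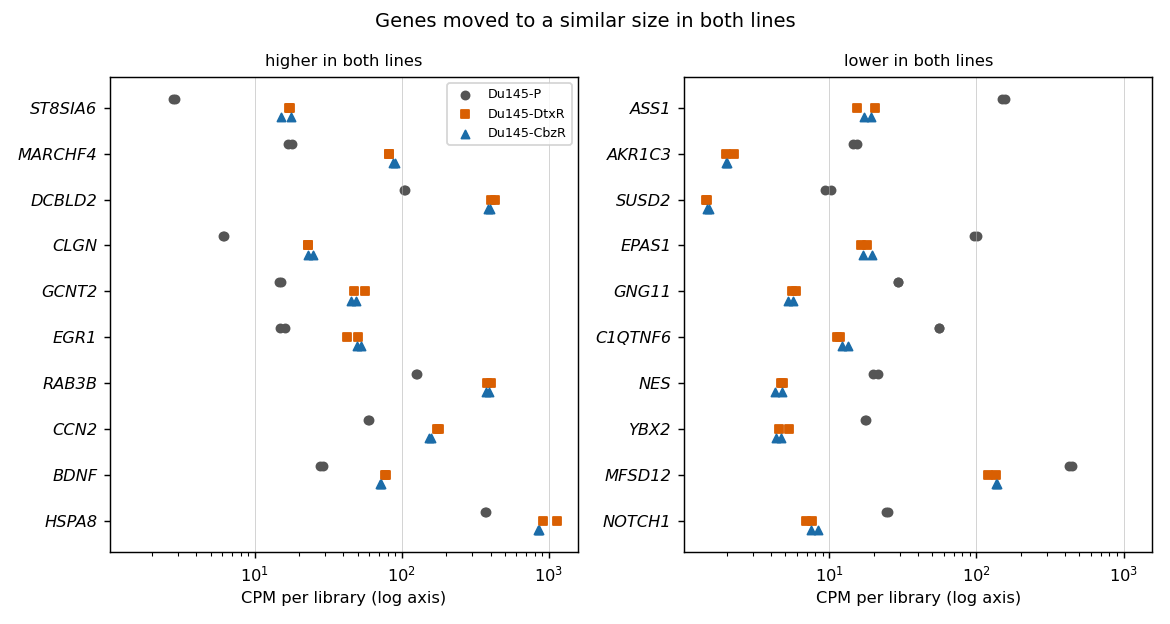
CPM per library on a log axis for the 10 higher (left) and 10 lower genes (right) of similar size that the naming rule picked, with circles for Du145-P, squares for Du145-DtxR and triangles for Du145-CbzR. In each row the 4 resistant points lie together and apart from the 2 parental points, which the rule makes nearly certain. For ASS1 the parental libraries were at 149 and 156 CPM and the resistant ones at 15.5 to 20.3 CPM.

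The genes with the strongest change in both lines outside the similar-size group began with the drug efflux pump. ABCB1, which pumps taxanes out of the cell, had 0.227 and 0.464 CPM in Du145-P, 455 and 454 CPM in Du145-DtxR and 2809 and 2722 CPM in Du145-CbzR. It rose by 10.35 ± 0.11 on the log2 scale in Du145-DtxR and by 12.95 ± 0.11 in Du145-CbzR, an average of 11.65 ± 0.11 (adjusted p = 2.06e-14), and the level in Du145-CbzR exceeded that in Du145-DtxR by 2.61 ± 0.055 (adjusted p = 7.42e-12). So the lines were alike in direction and differed in size. The neighboring paralog ABCB4, a phospholipid transporter of bile canaliculi, had 0.0325 and 0.166 CPM in Du145-P, 0.441 and 0.222 CPM in Du145-DtxR and 7.50 and 6.43 CPM in Du145-CbzR, an average of 3.90 ± 0.48 (adjusted p = 2.37e-05) and a difference of 4.38 ± 0.32 (adjusted p = 2.02e-07). Levels of ABCB1 in Du145-P, and of ABCB4 in Du145-P and Du145-DtxR, were below 0.5 CPM. Standard errors that rest on these levels are too small. The call of ABCB4 was lost with the resistant libraries as 1 group (adjusted p = 0.19).

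The window around the RefSeq start of ABCB1 (GRCh38.p14, chr7:87713246-87713545, minus strand, 250 bases before the start to 50 after it) is shown because this gene carries the largest called rise among the named genes, with its single CpG in capitals.
ABCB1: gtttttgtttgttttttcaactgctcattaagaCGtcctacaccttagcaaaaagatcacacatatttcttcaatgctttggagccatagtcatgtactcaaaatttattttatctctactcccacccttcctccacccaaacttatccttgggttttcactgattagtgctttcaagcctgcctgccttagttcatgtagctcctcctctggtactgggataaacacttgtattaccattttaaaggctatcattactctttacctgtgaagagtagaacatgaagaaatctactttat
Most promoters of that length in the genes tested held more: the median was 26 CpG over 12257 genes with a RefSeq window. Only this start of ABCB1 was examined, so the count does not describe any other start of the gene.

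ABCC9, a regulatory subunit of ATP-sensitive potassium channels, had 0 counts in both Du145-P libraries, 6.69 and 9.42 CPM in Du145-DtxR and 0.227 and 0.260 CPM in Du145-CbzR. Against a floor of 3 counts over the parental pair it was at least 164-fold higher in Du145-DtxR and at least 4.95-fold higher in Du145-CbzR. KRTAP2-3, a keratin-associated protein whose family holds close copies, had 0.227 and 0.232 CPM in Du145-P, 75.9 and 83.9 CPM in Du145-DtxR and 6.27 and 6.82 CPM in Du145-CbzR and an average of 6.61 ± 0.16 (adjusted p = 5.94e-11). KRTAP2-3 had few counts in Du145-P, so its standard error is too small. ABCC9 and KRTAP2-3 were both far higher in Du145-DtxR than in Du145-CbzR. Neither kept its call when the resistant libraries were entered as 1 group (adjusted p = 0.18 for ABCC9 and 0.084 for KRTAP2-3).

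SLC4A4, a sodium bicarbonate cotransporter, had 3.28 and 3.75 CPM in Du145-P, 37 and 39.5 CPM in Du145-DtxR and 21.2 and 19.6 CPM in Du145-CbzR, an average of 2.99 ± 0.091 (adjusted p = 2.81e-10). SCN9A, the voltage-gated sodium channel Nav1.7, had 4.03 and 4.08 CPM in Du145-P, 39.4 and 39.4 CPM in Du145-DtxR and 20.6 and 19.9 CPM in Du145-CbzR, an average of 2.80 ± 0.077 (adjusted p = 1.44e-10). NAV2, a microtubule-binding protein known from neurite growth, had 1.27 and 1.39 CPM in Du145-P, 13.6 and 12.5 CPM in Du145-DtxR and 6.56 and 6.60 CPM in Du145-CbzR, an average of 2.80 ± 0.14 (adjusted p = 1.16e-08). In these genes every Du145-DtxR library was above every Du145-CbzR library, and both pairs were above the parental pair. CD274, the immune checkpoint ligand PD-L1, had the same order, with 2.11 and 1.73 CPM in Du145-P, 18.5 and 21.4 CPM in Du145-DtxR and 10.03 and 9.07 CPM in Du145-CbzR, an average of 2.84 ± 0.13 (adjusted p = 7.25e-09) and a difference between the lines of -1.06 ± 0.11 (adjusted p = 4.25e-06).

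ANKRD1, a nuclear ankyrin repeat protein whose gene is a standard target of the coactivator YAP and its DNA-binding partners TEAD, had 92.7 and 105 CPM in Du145-P, 1000.2 and 1022 CPM in Du145-DtxR and 545 and 554 CPM in Du145-CbzR. It rose by 3.35 ± 0.063 in Du145-DtxR and by 2.47 ± 0.061 in Du145-CbzR, an average of 2.91 ± 0.058 (adjusted p = 1.77e-11). ANKRD1 and CCN2 moved together, and their promoters are shown with the TEAD core motif CATTCC or its reverse complement GGAATG in capitals (GRCh38.p14, chr10:90921038-90921337 and chr6:131951323-131951622, both on the minus strand).
ANKRD1: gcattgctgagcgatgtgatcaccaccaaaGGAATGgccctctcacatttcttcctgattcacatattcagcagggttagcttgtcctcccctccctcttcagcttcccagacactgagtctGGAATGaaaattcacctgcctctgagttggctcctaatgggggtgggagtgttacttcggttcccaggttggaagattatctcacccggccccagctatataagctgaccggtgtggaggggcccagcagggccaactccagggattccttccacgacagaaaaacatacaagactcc
CCN2: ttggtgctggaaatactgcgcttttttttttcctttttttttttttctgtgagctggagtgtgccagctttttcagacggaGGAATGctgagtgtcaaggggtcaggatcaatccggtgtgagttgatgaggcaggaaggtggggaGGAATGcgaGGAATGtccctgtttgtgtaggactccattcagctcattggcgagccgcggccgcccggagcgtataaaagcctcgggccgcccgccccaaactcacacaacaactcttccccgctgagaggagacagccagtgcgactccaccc
The ANKRD1 window held 2 matches and the CCN2 window held 3. On either strand the motif was found in 10.9% of the 12257 windows, in 18 of 110 (16.4%) for genes higher in both lines, in 35 of 401 (8.73%) for genes lower in both, and in 6 of 17 for the YAP and TEAD targets tested. A match describes letters in this window and no binding was measured.

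On the lower side, BCHE, the plasma esterase butyrylcholinesterase, had 108 and 94.8 CPM in Du145-P and 0 counts in all 4 resistant libraries. Its level had dropped at least 1834-fold for Du145-DtxR and at least 2080-fold for Du145-CbzR, with the floor at 3 counts over a line's libraries. Because neither line gave a count, whether they fell equally far cannot be measured, and BCHE was among 12 genes with 0 counts in all 4 resistant libraries that for this reason are in no similar-size group.

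The signaling proteins BMP7 and STC1 were near 0 in both lines. BMP7, a ligand of the TGF-beta family, had 13.8 and 14.6 CPM in Du145-P, 0 and 0.0369 CPM in Du145-DtxR and 0.0325 and 0.130 CPM in Du145-CbzR, and the adjusted p of its average was 3.01e-10. Du145-DtxR gave 1 count of BMP7 against 865 for the parent (log2 ratio -9.59, 95% counting interval -14.9 to -7.11). STC1, the secreted hormone stanniocalcin, had 5.59 and 6.37 CPM in Du145-P, 0 and 0.0369 CPM in Du145-DtxR and 0.0974 and 0.0650 CPM in Du145-CbzR, and the adjusted p of its average was 4.33e-09. For STC1 Du145-DtxR also gave 1 count, against 364 (log2 ratio -8.34, counting interval -13.6 to -5.85).

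SELENBP1, an enzyme that oxidizes methanethiol, had 6.14 and 6.47 CPM in Du145-P, 0.0368 and 0.148 CPM in Du145-DtxR and 0.0325 and 0.0325 CPM in Du145-CbzR, and the adjusted p of its average was 3.87e-09. LGSN, a relative of glutamine synthetase known from the lens, had 20.01 and 14.6 CPM in Du145-P, 0 and 0.0369 CPM in Du145-DtxR and 0.357 and 0.195 CPM in Du145-CbzR, and the adjusted p of its average was 7.36e-10. ZNF320, a zinc finger protein of the KRAB family, had 6.59 and 5.44 CPM in Du145-P, 0.0368 and 0.0369 CPM in Du145-DtxR and 0.130 and 0.0975 CPM in Du145-CbzR, and the adjusted p of its average was 2.97e-09. In all 3 the resistant libraries stayed below 0.4 CPM. A line had only 1 or 2 counts in each case: SELENBP1 gave 2 in Du145-CbzR (log2 ratio to Du145-P -7.60, counting interval -10.7 to -5.74), LGSN 1 in Du145-DtxR (-9.88, -15.2 to -7.40) and ZNF320 2 in Du145-DtxR (-7.35, -10.4 to -5.49).

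CDH1, which encodes E-cadherin, the adhesion molecule of epithelial cells, had 38.9 and 34.8 CPM in Du145-P, 1.65 and 1.15 CPM in Du145-DtxR and 0.747 and 0.682 CPM in Du145-CbzR. It fell by 4.72 on the log2 scale in Du145-DtxR and by 5.68 in Du145-CbzR, an average of -5.20 ± 0.11 (adjusted p = 1.80e-11), and the lines differed by -0.97 ± 0.26 (adjusted p = 0.0059). TXNIP, an inhibitor of thioredoxin and of glucose uptake, had 15.4 and 14.4 CPM in Du145-P, 0.809 and 0.185 CPM in Du145-DtxR and 0 and 0.0325 CPM in Du145-CbzR, with 1 count in Du145-CbzR (log2 ratio to Du145-P -9.84, counting interval -15.1 to -7.36). Its average passed at an adjusted p of 4.90e-09 and missed the threshold with the resistant libraries as 1 group (adjusted p = 0.051).

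**Figure D3:**
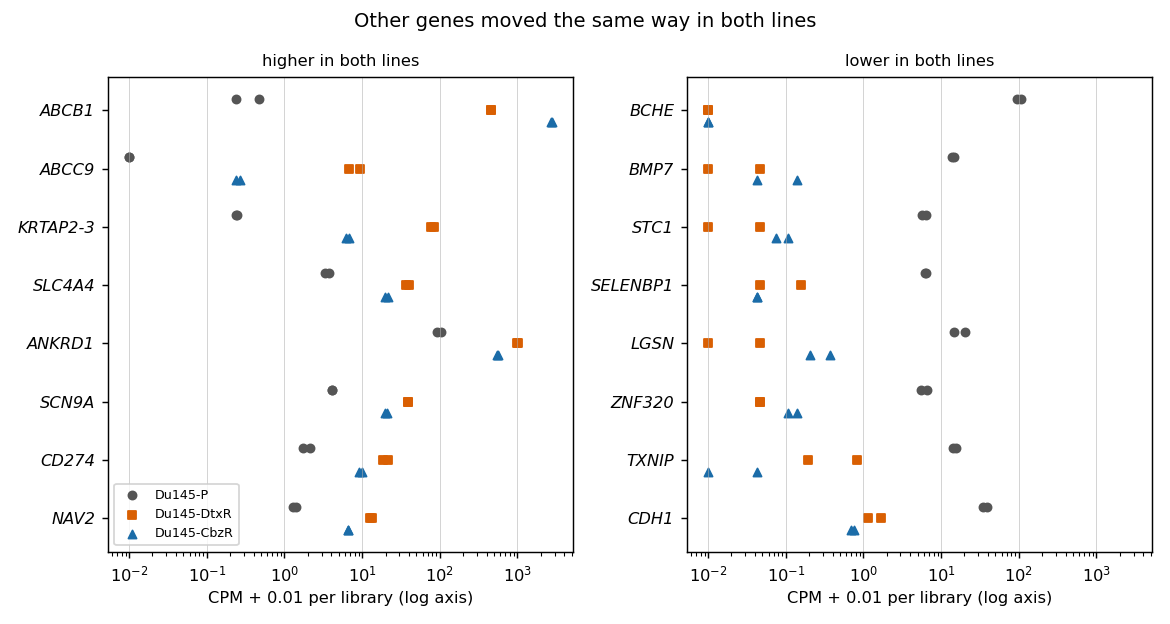
CPM per library, with 0.01 added, on a log axis for the 8 higher (left) and 8 lower genes (right) with the largest smaller change outside the similar-size group. Points at 0.01 are libraries with 0 counts, as for BCHE in all 4 resistant libraries. By the rule that picked the genes, the resistant lines sit on the same side of Du145-P in every row, while often lying apart from each other.

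The promoters of BCHE and ASS1 show how unlike the lowered genes were in CpG content, here in capitals (GRCh38.p14, chr3:165837374-165837673 on the minus strand and chr9:130444457-130444756 on the plus strand).
BCHE: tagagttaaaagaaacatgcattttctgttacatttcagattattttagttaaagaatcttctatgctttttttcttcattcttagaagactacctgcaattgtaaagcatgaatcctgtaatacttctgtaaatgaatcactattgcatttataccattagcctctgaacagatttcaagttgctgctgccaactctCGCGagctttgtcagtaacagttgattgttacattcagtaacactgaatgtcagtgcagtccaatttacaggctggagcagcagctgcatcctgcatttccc
ASS1: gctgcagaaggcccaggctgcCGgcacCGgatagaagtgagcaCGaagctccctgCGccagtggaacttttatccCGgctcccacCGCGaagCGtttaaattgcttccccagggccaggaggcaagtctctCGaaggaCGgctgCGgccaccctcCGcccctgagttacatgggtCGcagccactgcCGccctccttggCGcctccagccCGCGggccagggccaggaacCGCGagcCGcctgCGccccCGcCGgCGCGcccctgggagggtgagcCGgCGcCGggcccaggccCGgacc
The BCHE window held 2 CpG and the ASS1 window held 29. The median was 20 CpG (quartiles 8 and 33) over 401 of the 624 genes lower in both lines and 16 (quartiles 5 and 26.8) over 110 of the 198 higher in both, against 26 (quartiles 17 and 34) over all 12257 matched genes. Windows with 5 CpG or fewer made up 30.0% of the higher, 16.7% of the lower and 8.07% of all matched genes. For the similar-size genes, the medians were 20 over 16 higher and 31.5 over 34 lower genes.

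The average hides genes that moved in opposite directions, of which 238 (1.31% of the genes tested) were DEGs. Of these, 117 (0.642%) were higher in Du145-DtxR and lower in Du145-CbzR, and 121 (0.664%) the reverse. ARMCX2, an armadillo repeat protein, had 3.41 and 2.99 CPM in Du145-P, 41.3 and 42.7 CPM in Du145-DtxR and 0 counts in Du145-CbzR. ACP7, an acid phosphatase, had 1.27 and 1.26 CPM, 12.2 and 12.8 CPM and 0 counts in the same order. In Du145-CbzR these genes were at least 65.7-fold and 25.9-fold lower than in Du145-P. MYEOV, named for its overexpression in myeloma, had 6.17 and 6.70 CPM in Du145-P, 72.3 and 71.2 CPM in Du145-DtxR and 1.04 and 0.617 CPM in Du145-CbzR. MMP16, a membrane-type matrix metalloproteinase, had 0.390 and 0.265 CPM in Du145-P, 6.54 and 7.65 CPM in Du145-DtxR and 0.0649 and 0 CPM in Du145-CbzR.

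In the other direction, BMP5, like BMP7 a bone morphogenetic protein, had 21.9 and 18.7 CPM in Du145-P, 0.147 and 0.111 CPM in Du145-DtxR and 232 and 225 CPM in Du145-CbzR. FMN2, an actin-nucleating formin, had 3.35 and 2.89 CPM in Du145-P, 0 and 0.0369 CPM in Du145-DtxR and 32.4 and 35.9 CPM in Du145-CbzR. CDHR1, a cadherin known from photoreceptors, had 4.90 and 4.94 CPM in Du145-P, 0.147 and 0.406 CPM in Du145-DtxR and 44.9 and 45.4 CPM in Du145-CbzR. By the rule that picked them, Du145-DtxR lay below and Du145-CbzR above the parental pair in each. AADAC, an esterase of the liver, had 0.779 and 0.498 CPM in Du145-P, 0 counts in Du145-DtxR, at least 11.6-fold lower, and 7.05 and 5.52 CPM in Du145-CbzR. SLFN14, a ribosome-associated endoribonuclease, had 5 counts in the Du145-P libraries together, 0 in Du145-DtxR, which bounds its fall at only 1.48-fold or more, and 13.4 and 10.7 CPM in Du145-CbzR.

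Among the gene lists drawn up for this comparison, most tubulins were higher in both lines. By the adjusted p of the average alone, a test that 27% of all genes passed as higher and 31.3% as lower, 11 of 15 tested tubulins were higher and 3 lower. In each line on its own, 9 were higher in both and 1 lower in both, against 13.3% and 13.6% of all genes. The median average log2 change of the list was 0.63, against -0.032 over all genes tested. TUBB, the main beta-tubulin of most cells, had 852 and 913 CPM in Du145-P, 1683 and 1757 CPM in Du145-DtxR and 1812 and 1859 CPM in Du145-CbzR, an average of 1.01 ± 0.046 (adjusted p = 6.59e-09). TUBB6 had 96.8 and 102 CPM in Du145-P, 177 and 178 CPM in Du145-DtxR and 166 and 169.7 CPM in Du145-CbzR, an average of 0.80 ± 0.043 (adjusted p = 2.63e-08). TUBB3, the neuronal isotype often linked to taxane resistance, had 64.3 and 64.1 CPM in Du145-P, 98.4 and 95.2 CPM in Du145-DtxR and 121 and 127 CPM in Du145-CbzR, an average of 0.77 ± 0.045 (adjusted p = 5.19e-08). All 4 resistant libraries were above both parental ones for these isotypes.

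TUBA1C, an alpha-tubulin, rose by 0.76 ± 0.047 on average (adjusted p = 9.61e-08), and TUBB2A, the only tubulin in the similar-size group, by 1.19 ± 0.076 (adjusted p = 1.11e-07). TUBA1A went opposite ways, -1.07 ± 0.078 in Du145-DtxR and 0.67 ± 0.072 in Du145-CbzR, while TUBA4A fell by 0.61 on average. Tubulin genes are similar in sequence, so some reads may be shared between them, TUBB2A and TUBB2B above all. With the resistant libraries as 1 group, 5 tubulins stayed higher by the adjusted p alone. The 24 microtubule-associated proteins tested had 8 higher and 8 lower, with a median of 0.015. MAPT, which encodes tau, had an average of -0.81 ± 0.053 (adjusted p = 1.33e-07) and MAP1B one of 0.60 ± 0.043 (adjusted p = 2.87e-07).

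Most genes of mitosis were higher in both lines, by small amounts. Of 25 tested, 21 were higher and 3 lower on average, 18 were higher in both lines, and the median change was 0.35. CCNB1, the cyclin that drives entry into mitosis, had 81.8 and 77.1 CPM in Du145-P, 126 and 131 CPM in Du145-DtxR and 156 and 162 CPM in Du145-CbzR, an average of 0.85 ± 0.046 (adjusted p = 3.18e-08). CCNA2, the cyclin of S phase and G2, had 67.3 and 66.7 CPM in Du145-P, 109 and 115 CPM in Du145-DtxR and 107 and 111 CPM in Du145-CbzR, an average of 0.72 ± 0.045 (adjusted p = 9.49e-08). CDC20, which activates the anaphase-promoting complex, had an average of 0.67 ± 0.049 (adjusted p = 3.55e-07), and the checkpoint protein MAD2L1 one of 0.65 ± 0.052 (adjusted p = 7.71e-07). As 1 group, 5 of the 25 stayed higher. Replication and E2F targets had 11 of 25 higher and 5 lower. TK1, thymidine kinase, had an average of 0.68 ± 0.048 (adjusted p = 2.72e-07). G1 cyclins and CDK inhibitors had 7 of 15 higher and 5 lower.

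YAP and TEAD targets were higher in 12 of 22 and lower in 4, and the same number, 12, was higher in each line separately. Their median average change was 0.38, and 6 stayed higher as 1 group. CCN1, like CCN2 a secreted matricellular protein, had 303 and 301 CPM in Du145-P, 665 and 625 CPM in Du145-DtxR and 662 and 666 CPM in Du145-CbzR, an average of 1.11 ± 0.043 (adjusted p = 2.00e-09) and an interval for the line difference of -0.061 to 0.15. GADD45B, a stress-induced partner of MAP kinase kinases, had 58.2 and 59.7 CPM in Du145-P, 127 and 128 CPM in Du145-DtxR and 111 and 112 CPM in Du145-CbzR, an average of 1.02 ± 0.043 (adjusted p = 3.85e-09). Output genes of ERK signaling were higher in 14 of 19 and lower in 4, 11 of them higher in both lines, with a median of 0.50. FOSL1 and JUN, subunits of AP-1, had averages of 2.09 ± 0.081 (adjusted p = 1.93e-09) and 1.78 ± 0.061 (adjusted p = 7.12e-10), with changes in Du145-DtxR above those in Du145-CbzR by 2.17 and 1.19. As 1 group, 2 of the 19 stayed higher and 1 lower, and neither FOSL1 (adjusted p = 0.16 in edgeR) nor JUN (adjusted p = 0.081) was called. DUSP4, a phosphatase that acts on ERK, went the other way, at -2.64 ± 0.094 (adjusted p = 1.02e-09).

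**Figure D4:**
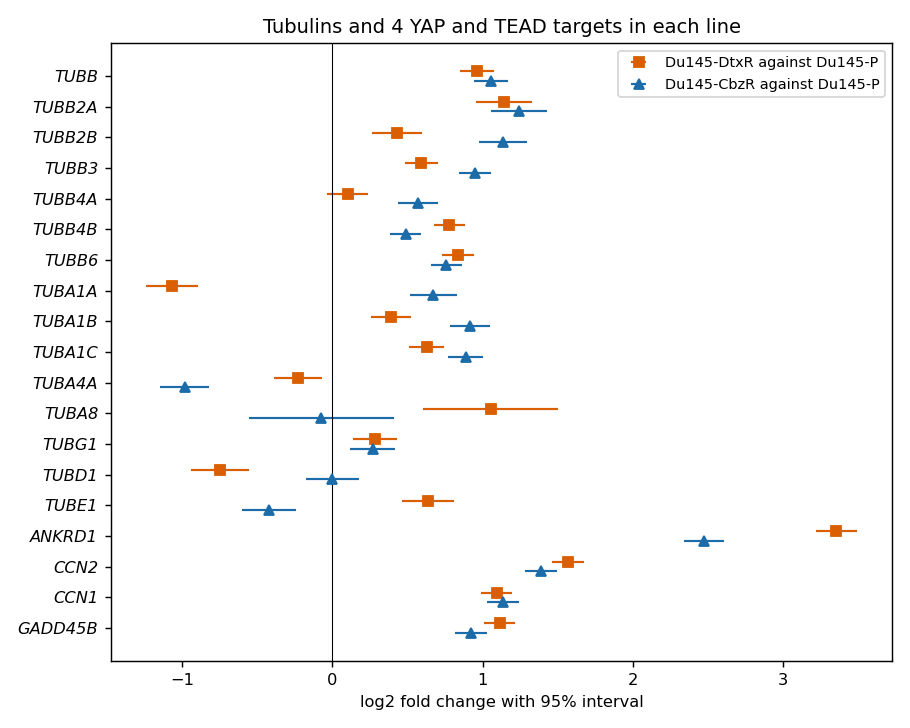
Log2 fold change against Du145-P with its 95% interval for the 15 tubulins tested and 4 YAP and TEAD targets, with squares for Du145-DtxR and triangles for Du145-CbzR. The marks of TUBB, TUBB2A, TUBB6, CCN1 and CCN2 lay close together, and TUBA1A lay on opposite sides of 0.

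Growth factors and their receptors were divided, with 10 of 26 higher and 12 lower. EREG, the EGF receptor ligand epiregulin, had 10.7 and 8.23 CPM in Du145-P, 31.2 and 28.7 CPM in Du145-DtxR and 113 and 108 CPM in Du145-CbzR, an average of 2.60 ± 0.090 (adjusted p = 8.04e-10). EGF itself had 14.1 and 12.1 CPM in Du145-P, 1.47 and 1.44 CPM in Du145-DtxR and 4.64 and 4.52 CPM in Du145-CbzR, an average of -2.34 ± 0.11 (adjusted p = 1.20e-08). EREG was raised most in Du145-CbzR and EGF lowered most in Du145-DtxR. IGF1R, the receptor of insulin-like growth factors, had 265 and 259.7 CPM in Du145-P, 126 and 119 CPM in Du145-DtxR and 86.3 and 84.3 CPM in Du145-CbzR, an average of -1.36 ± 0.040 (adjusted p = 2.08e-10). The receptor tyrosine kinase AXL rose by 0.92 ± 0.042 on average (adjusted p = 7.11e-09).

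The interferon-stimulated genes that passed on average were all lower. Of 21 tested, 13 were lower and 8 did not pass on average, 9 were lower in both lines and 6 were DEGs in both, with a median of -0.58. OAS3, which makes the activator of RNase L, had 15 and 14.3 CPM in Du145-P, 5.07 and 5.25 CPM in Du145-DtxR and 5.49 and 5.98 CPM in Du145-CbzR, an average of -1.43 ± 0.089 (adjusted p = 9.58e-08). IFIT2, an RNA-binding antiviral protein, had 10.8 and 10.3 CPM in Du145-P, 3.79 and 3.92 CPM in Du145-DtxR and 3.38 and 3.44 CPM in Du145-CbzR, an average of -1.54 ± 0.10 (adjusted p = 1.86e-07). Both fell to a similar size in the lines. OASL, an enzymatically inactive relative of the OAS proteins, had 11.9 and 12 CPM in Du145-P, 3.46 and 3.81 CPM in Du145-DtxR and 2.27 and 2.83 CPM in Du145-CbzR, an average of -1.97 ± 0.11 (adjusted p = 5.37e-08). MX1, an antiviral GTPase, had 4.19 and 3.85 CPM in Du145-P, 0.0368 and 0.111 CPM in Du145-DtxR and 0.812 and 0.585 CPM in Du145-CbzR, an average of -4.10 ± 0.27 (adjusted p = 1.30e-07). The level of MX1 was lowest in Du145-DtxR, where few counts make its standard error too small. IFIT3 and ISG20 were DEGs lower in both lines too, and 5 of the 21 genes moved in opposite directions. As 1 group, 5 stayed lower.

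Of 16 genes of MHC class I antigen presentation, 4 were higher and 10 lower, yet 6 moved in opposite directions in the lines, against 10.3% of all genes. HLA-E fell by 0.60 on average (adjusted p = 4.54e-07). ERAP2, a peptide-trimming aminopeptidase, had 17.3 and 16.2 CPM in Du145-P, 31.3 and 34.4 CPM in Du145-DtxR and 0.779 and 0.877 CPM in Du145-CbzR. The lines lay on opposite sides of the parental pair, and the average was -1.68 ± 0.095 (adjusted p = 4.19e-08).

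Epithelial junction and keratin genes included 5 DEGs lower in both lines, CDH1, JUP, CLDN4, TJP3 and ESRP1, among 9 lower and 4 higher of 18 tested. JUP, plakoglobin of desmosomes and adherens junctions, had 285 and 304 CPM in Du145-P, 19.7 and 19.4 CPM in Du145-DtxR and 57.9 and 58.7 CPM in Du145-CbzR, an average of -3.13 ± 0.044 (adjusted p = 1.15e-12). TJP3, a scaffold of tight junctions, had 15.9 and 14.8 CPM in Du145-P, 2.13 and 1.85 CPM in Du145-DtxR and 5.84 and 6.14 CPM in Du145-CbzR, an average of -2.15 ± 0.10 (adjusted p = 8.05e-09). The tight junction gene CLDN1 rose instead, to 204 and 206 CPM in Du145-DtxR and 74.9 and 74 CPM in Du145-CbzR from 48.2 and 48.9 CPM, an average of 1.35 ± 0.044 (adjusted p = 5.02e-10). As 1 group, 5 of the 18 stayed lower. Mesenchymal genes and transcription factors of the epithelial-mesenchymal transition did not rise as a list, with 3 of 11 higher and 5 lower. VIM, the intermediate filament vimentin, had an average of 0.69 ± 0.043 (adjusted p = 9.37e-08), the transcription factor ZEB2 one of 1.31 ± 0.094 (adjusted p = 2.90e-07) and the calcium-binding protein S100A4 one of -3.34 ± 0.068 (adjusted p = 1.80e-11).

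Integrins had 3 of 14 higher and 8 lower, with 7 moving in opposite directions in the lines, and collagens and matrix genes 11 of 28 higher and 14 lower. COL6A1, a chain of collagen VI, had an average of -1.81 ± 0.045 (adjusted p = 6.76e-11). THBS1, thrombospondin 1, had an average of 0.98 ± 0.050 (adjusted p = 1.96e-08), larger in Du145-CbzR by 1.26 ± 0.055. COL1A1 and COL3A1 made the fibroblast marker sum lower in Du145-DtxR, while LUM and DCN had at most 1 count in any library.

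In some lists most members were higher on average, with a far larger median change in Du145-DtxR. Chaperones and degradation factors of the endoplasmic reticulum were higher in 20 of 22 and 2 did not pass. The median change was 1.44 in Du145-DtxR and 0.11 in Du145-CbzR, and the lines differed for all 22. HSPA5, the chaperone BiP, had 749.7 and 719 CPM in Du145-P, 5389 and 5157 CPM in Du145-DtxR and 817 and 828 CPM in Du145-CbzR, an average of 1.5 ± 0.044 (adjusted p = 2.23e-10). CALR, calreticulin, had 496 and 498 CPM in Du145-P, 2090.1 and 2125 CPM in Du145-DtxR and 828 and 828 CPM in Du145-CbzR, an average of 1.41 ± 0.041 (adjusted p = 2.06e-10). As 1 group neither was called (adjusted p = 0.28 for HSPA5 and 0.14 for CALR in edgeR). Genes of the ATF4 amino acid response were higher in 21 of 29 and lower in 3, with medians of 0.82 in Du145-DtxR and -0.083 in Du145-CbzR. DDIT3, the stress transcription factor CHOP, had 7.47 and 8.56 CPM in Du145-P, 62.2 and 56.2 CPM in Du145-DtxR and 11.9 and 12.2 CPM in Du145-CbzR, an average of 1.74 ± 0.084 (adjusted p = 1.09e-08). NF-kB targets (10 of 18 higher, 3 lower) had medians of 0.87 and -0.37, and death receptors and caspases (13 of 20 higher, 4 lower) of 0.58 and 0.033. In the order of these 4 lists, 8, 10, 3 and 6 members were higher in both lines, against 13.3% of all genes. Members that moved in opposite directions in the lines numbered 5, 9, 7 and 3, against 10.3% of all genes.

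Ribosome biogenesis and MYC targets were higher in 23 of 26 and 3 did not pass, and 17 were higher in both lines, with medians of 0.76 in Du145-DtxR and 0.26 in Du145-CbzR. NPM1, nucleophosmin, had 517 and 469 CPM in Du145-P, 786 and 847 CPM in Du145-DtxR and 822 and 843 CPM in Du145-CbzR, an average of 0.74 ± 0.051 (adjusted p = 2.22e-07) and a difference of 0.029 ± 0.057 between the lines. BYSL, a factor of small subunit assembly, had an average of 0.77 ± 0.057 (adjusted p = 4.17e-07). As 1 group, 2 of the 26 stayed called.

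**Figure D5:**
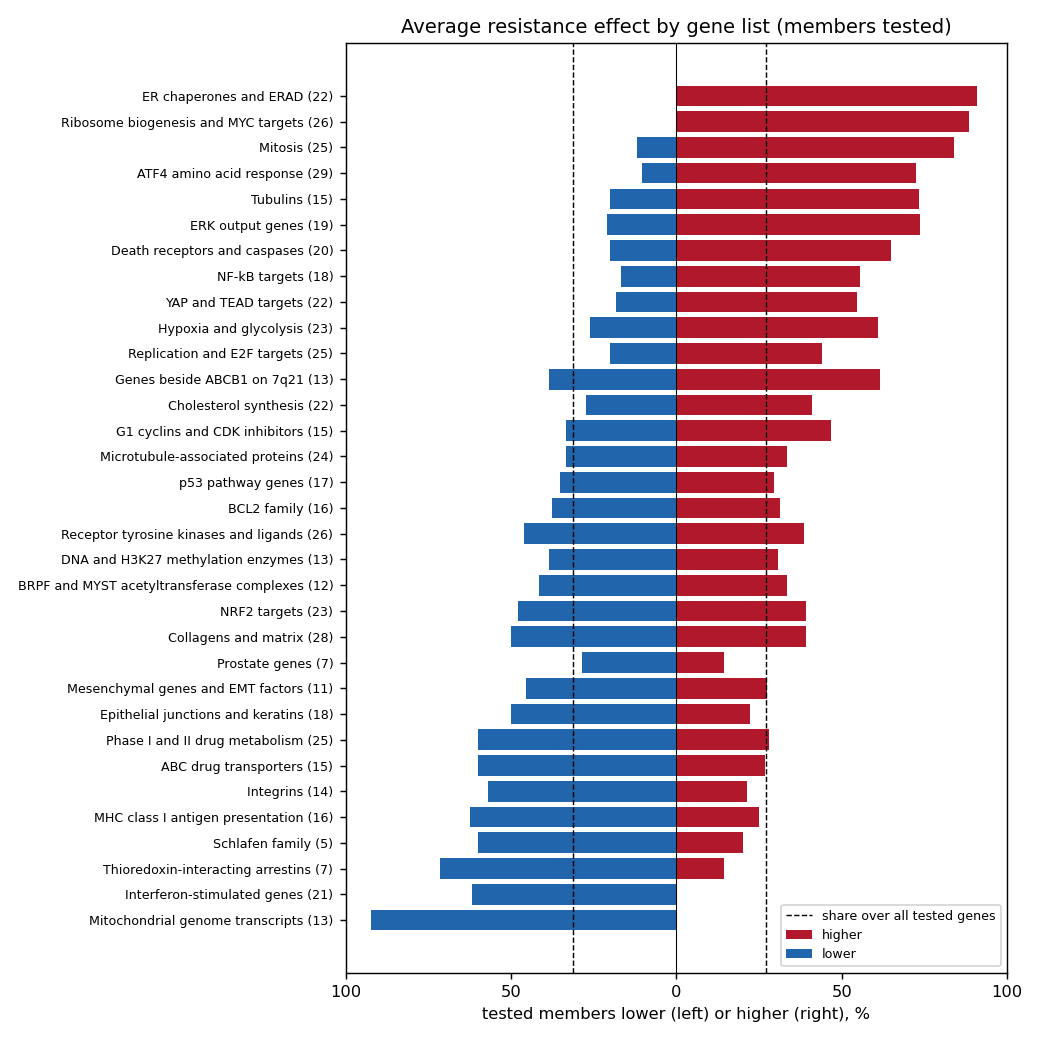
Share of tested members of each gene list that were higher (right) or lower (left) on average in the resistant lines at an adjusted p under 0.05, with the number tested in brackets. Dashed lines mark the shares over all genes, 27% higher and 31.3% lower, and a long bar can come from 1 line alone, as for the chaperones of the endoplasmic reticulum.

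The lists of ABC transporters and of drug metabolism had more lower than higher members on average. Of 15 listed ABC transporters tested, 4 were higher and 9 lower. That list, drawn up for drug transport, also holds lipid transporters such as ABCA1 and ABCA7 and the channel subunit ABCC9. ABCA1, which exports cholesterol, had 10.5 and 10.02 CPM in Du145-P, 1.51 and 1.51 CPM in Du145-DtxR and 2.73 and 2.70 CPM in Du145-CbzR, an average of -2.34 ± 0.12 (adjusted p = 1.57e-08), and ABCA7, a lipid transporter, had 42.8 and 44 CPM in Du145-P, 22.6 and 18.3 CPM in Du145-DtxR and 18.9 and 18.3 CPM in Du145-CbzR, an average of -1.15 ± 0.074 (adjusted p = 1.16e-07). Of 25 enzymes of phase I and II drug metabolism, 7 were higher and 15 lower, and of 23 NRF2 targets, 9 were higher and 11 lower. ALDH3B1, an aldehyde dehydrogenase, had an average of -1.11 ± 0.043 (adjusted p = 1.91e-09). CYP1B1, a cytochrome P450 that oxidizes estrogens, had one of -0.97 ± 0.045 (adjusted p = 7.15e-09).

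Regulators of apoptosis of the BCL2 family were mixed, 5 of 16 higher and 6 lower. The pro-apoptotic BH3-only gene BCL2L11, which encodes BIM, had 43.9 and 43.9 CPM in Du145-P, 16 and 15.9 CPM in Du145-DtxR and 23.3 and 20.5 CPM in Du145-CbzR, an average of -1.23 ± 0.062 (adjusted p = 1.53e-08), and BMF, another of that class, had 24.9 and 27.7 CPM in Du145-P, 2.61 and 3.03 CPM in Du145-DtxR and 13.4 and 14.7 CPM in Du145-CbzR, an average of -2.06 ± 0.082 (adjusted p = 2.40e-09). The anti-apoptotic MCL1 and BCL2L1, which encodes BCL-XL, rose by 0.78 ± 0.044 (adjusted p = 4.24e-08) and 0.92 ± 0.055 (adjusted p = 6.47e-08). CFLAR, an inhibitor of caspase-8 activation, had 102 and 101 CPM in Du145-P, 226 and 218 CPM in Du145-DtxR and 203 and 181 CPM in Du145-CbzR, an average of 1.03 ± 0.052 (adjusted p = 1.64e-08). For these 5 genes every resistant library lay on the same side of both parental ones.

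Among stress and p53 pathway genes (5 of 17 higher, 6 lower), 2 rose strongly. TP53I3, a quinone oxidoreductase induced by p53, had 19 and 19.2 CPM in Du145-P, 48.1 and 47.3 CPM in Du145-DtxR and 99.9 and 104 CPM in Du145-CbzR, an average of 1.87 ± 0.055 (adjusted p = 2.08e-10). GADD45A, a growth arrest and DNA damage gene, had 15.2 and 16.2 CPM in Du145-P, 65.2 and 62.4 CPM in Du145-DtxR and 31.5 and 31.1 CPM in Du145-CbzR, an average of 1.51 ± 0.062 (adjusted p = 3.14e-09). TP53I3 was raised most in Du145-CbzR and GADD45A most in Du145-DtxR. DDB2, which recognizes ultraviolet damage in DNA, was lower in both lines, with 36.8 and 38.1 CPM in Du145-P, 24.4 and 25.3 CPM in Du145-DtxR and 28.6 and 26.8 CPM in Du145-CbzR, an average of -0.51 ± 0.057 (adjusted p = 1.12e-05).

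In cholesterol synthesis (9 of 22 higher, 6 lower), INSIG1, which retains the sterol sensor in the endoplasmic reticulum, had 152 and 134 CPM in Du145-P, 77.3 and 69.7 CPM in Du145-DtxR and 72.4 and 74.2 CPM in Du145-CbzR, an average of -0.96 ± 0.057 (adjusted p = 6.67e-08). All 4 resistant libraries lay below both parental ones. Among NF-kB genes, the subunit NFKB1 rose in both lines, with 30.1 and 27.9 CPM in Du145-P, 46.9 and 51.2 CPM in Du145-DtxR and 52.8 and 55.4 CPM in Du145-CbzR, an average of 0.83 ± 0.062 (adjusted p = 4.19e-07). TNFAIP2, a protein of membrane nanotubes, fell in both, with 140.0 and 142 CPM in Du145-P, 51.3 and 45.7 CPM in Du145-DtxR and 63 and 65.6 CPM in Du145-CbzR, an average of -1.34 ± 0.049 (adjusted p = 1.31e-09). The glycolytic enzyme PFKP had 214 and 224 CPM in Du145-P, 398 and 378 CPM in Du145-DtxR and 335 and 352 CPM in Du145-CbzR, an average of 0.74 ± 0.045 (adjusted p = 8.48e-08). For these 3 genes too the resistant libraries did not overlap the parental pair.

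The arrestin family member ARRDC1 had 36.2 and 38.3 CPM in Du145-P, 21.5 and 17.5 CPM in Du145-DtxR and 21.1 and 21.7 CPM in Du145-CbzR, an average of -0.86 ± 0.074 (adjusted p = 1.20e-06). MLXIPL, the glucose-responsive transcription factor ChREBP, which is known to activate TXNIP, had 17.3 and 17.7 CPM in Du145-P, 4.19 and 3.21 CPM in Du145-DtxR and 9.38 and 9.03 CPM in Du145-CbzR, an average of -1.58 ± 0.094 (adjusted p = 6.27e-08). Both fell in the same direction as TXNIP, and their list had 1 of 7 higher and 5 lower.

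Of the remaining lists, hypoxia and glycolysis genes had 14 of 23 higher and 6 lower. DNA and H3K27 methylation enzymes had 4 of 13 higher and 5 lower, and the Schlafen family 1 of 5 higher and 3 lower. Prostate genes had 1 of 7 higher and 2 lower. The 13 genes beside ABCB1 had 8 higher and 5 lower, but the median was 0.073 in Du145-DtxR and 2.10 in Du145-CbzR. Transcripts of the mitochondrial genome were lower for 12 of 13, with medians of -0.45 and -0.26. BRPF and MYST acetyltransferase complexes had 4 of 12 higher and 5 lower. BRPF1 itself, a scaffold of these complexes, had 24 and 26.7 CPM in Du145-P, 22.8 and 22.5 CPM in Du145-DtxR and 22.2 and 21.5 CPM in Du145-CbzR, an average of -0.19 ± 0.063 (adjusted p = 0.023) that did not pass with DESeq2 (adjusted p = 0.18).

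The siRNA libraries, which were not used to pick any gene, gave a separate reading of the shared genes in Du145-DtxR cells. BRPF1 fell from 29.4, 30.6 and 31.0 CPM with siControl to 8.96, 8.67 and 8.19 CPM with siBRPF1, a log2 fold change of -1.82 ± 0.10 (adjusted p = 1.79e-06). At an adjusted p under 0.05, 15.1% of 15704 genes fell and 11.6% rose. Of the 624 genes lower in both resistant lines, 377 were tested in this experiment, and 148 of them (39.3%) fell further while 16 (4.24%) rose, with a median of -0.47 against -0.0070 over all genes. By the DEG thresholds 86 fell and 3 rose, where 3.34% and 0.49% of all genes did. Of the 198 genes higher in both lines, 146 were tested, and 24 (16.4%) fell and 17 (11.6%) rose, with a median of -0.098. So the genes lower in both lines fell in a larger share than the background, away from the parental level, while the shares of the genes higher in both were near it. The sets were not matched on level. Of the similar-size genes, 4 of 25 higher ones fell and 6 rose, and 14 of 43 lower ones fell and 4 rose.

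Of the 22 YAP and TEAD targets, 4 fell and 4 rose with siBRPF1, with a median of -0.022, so that the list as a whole was near the background. Of the raised targets named above, ANKRD1, CCN1 and CCN2 fell, and GADD45B did not pass, at -0.21 ± 0.10 (adjusted p = 0.14). ANKRD1 had 972, 908 and 949.8 CPM with siControl and 298, 271 and 289.9 CPM with siBRPF1, a log2 change of -1.72 ± 0.078 (adjusted p = 1.01e-06). For CCN1 the change was -0.81 ± 0.075 (adjusted p = 5.27e-05), for CCN2 -0.65 ± 0.077 (adjusted p = 0.00023) and for EGR1 -0.62 ± 0.091 (adjusted p = 0.00071). ABCB1 did not pass, at -0.056 ± 0.10 (adjusted p = 0.72). Of the lowered genes, ASS1 had 35.2, 38.7 and 32.4 CPM with siControl and 11.3, 12.0 and 12.8 CPM with siBRPF1, a change of -1.56 ± 0.10 (adjusted p = 9.36e-06), and CDH1, low in Du145-DtxR to begin with, had 2.00, 4.55 and 4.22 CPM against 0.287, 0.777 and 0.458 CPM (-2.82 ± 0.40, adjusted p = 0.00056). NES and IFIT2 moved back up, by 0.63 ± 0.084 (adjusted p = 0.00041) and 0.82 ± 0.15 (adjusted p = 0.0023).

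Genes that were DEGs lower in both lines were spread over the chromosomes with some unevenness, described here with no test. They made up 7.48% of the 214 genes tested on chromosome 21, 6.27% of the 750 on chromosome 9 and 5.95% of the 891 on chromosome 7, against 3.43% overall. Chromosome 7 also had the lowest median average change of the autosomes, -0.41, but the lines differed in where it came from. In 20 Mb steps by gene start, the Du145-CbzR median was between -1.01 and -0.99 in each of the 4 steps from 80 Mb to 160 Mb, where the Du145-DtxR median was between -0.10 and -0.031. From 0 to 20 Mb the Du145-DtxR median was -0.68 and that of Du145-CbzR was -0.050. On chromosome 9 the medians were 0.026 in Du145-DtxR and -0.44 in Du145-CbzR. In these stretches the average lay between unlike lines.

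Runs of at least 3 neighboring tested genes that were DEGs in the same direction in both lines numbered 17. The longest was PLPPR3, AZU1, PRTN3, ELANE and CFD, 5 genes lower on chromosome 19 from 812488 to 867884 (GRCh38), of which AZU1, PRTN3 and ELANE encode granule proteins known from neutrophils. Another was AKR1C1, AKR1C2 and AKR1C3 on chromosome 10, and a run of ZNF320, ZNF888, ZNF321P and ZNF816 lay on chromosome 19 from 52860851 to 52962911. On the higher side, ABCB4 and ABCB1 formed a run with the pseudogene HNRNPA1P9 on chromosome 7, and DCBLD2 one with LINC00973 and COL8A1 on chromosome 3. Over all 511 tested genes with a ZNF symbol, 16 (3.13%) were lower in both lines, close to the 3.43% over all genes. Of those 16, 13 lay on chromosome 19, as did 246 of the 511 tested. The 13 include the neighbors of the ZNF320 run.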

How the data were processed

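RNA-seq libraries were deposited as 1 table of the 6 resistance libraries and 1 of the 6 siRNA libraries, each with 60660 rows. Both hold estimated counts per gene, which the authors made with STAR and Salmon and deposited without normalization; versions are not given in the sources used here. Their identifiers matched GENCODE 44 (GRCh38) for 52342 rows. The 44 rows of the Y copies of pseudoautosomal genes were added to those of X, and estimated counts were rounded to whole numbers.

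Genes were filtered with filterByExpr, scaled by TMM and tested with edgeR 4.0.16 (glmQLFit and glmQLFTest, R 4.3.3) in 1 fit with a mean per line, with Benjamini-Hochberg adjustment over all 18218 genes. Every adjusted p comes from that test unless DESeq2 1.42.0 is named. The standard error is the log2 change divided by the square root of F, and it is too small where counts are few. Levels are CPM after TMM scaling. With 2 libraries per line and totals between 27512422 and 30593573, counting intervals at the 95% level and the floor of 3 counts cover counting error only. The siRNA table (15704 genes) was fitted in the same way, with totals between 16667822 and 17306275. The statistic was tested on simulated data in which both resistant lines shared the same changes, placed in genes with many counts. Changes in genes with few counts, and changes that differed between the lines, were not simulated.

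Named genes were ABCB1, ABCB4 and BRPF1, the 10 largest averages in each direction among similar-size genes, the 8 largest smaller changes in each direction among the other genes moved the same way, the 5 largest in each opposite direction (all at 5 CPM or more), and up to 4 per list by adjusted p over 33 lists. Genes outside that rule were named after their values were seen, TUBB2A, TUBA1A, TUBA4A and the members of chromosomal runs among them. The comparison, its members and the lists were chosen with earlier results of these data known, though each library was assigned to its line by its label. Promoter windows of 300 bases came from RefSeq and matched 12257 of the genes tested. Alternatives were another scaling, other filters, DESeq2, a replicate block, each library left out, a formal test against a fold change, other margins and the resistant libraries as 1 group. Some genes that the naming rule picked are not reported here.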

Additional observations from a re-analysis of the deposited data

Results flagged for a closer look

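Of 48 genes (ABCB1, ABCB4, BRPF1 and those picked by the size of their change), for 24 the change in Du145-CbzR differed from that in Du145-DtxR at an adjusted p under 0.05 in edgeR's quasi-likelihood test of the line difference, or the lines went in opposite directions. The values below are the log2 level in Du145-CbzR minus that in Du145-DtxR unless a fold is named. Over all genes tested, this test called 31.2% with a positive difference and 31.8% with a negative difference. The similar-size genes were picked for a small difference between the lines, and those that moved in opposite directions for a large difference. The count of 24 therefore depends on how the 48 genes were picked, and it is a description only.

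Higher in Du145-CbzR were ABCB1 by 2.61 and ABCB4 by 4.38, genes that were raised in both lines. The rise of ABCB4 in Du145-DtxR rested on 18 counts over both libraries of that line. The genes raised in both lines but less in Du145-CbzR were CCN2 at -0.17, HSPA8 at -0.26, SLC4A4 at -0.90, ANKRD1 at -0.88, SCN9A at -0.96, CD274 at -1.06, NAV2 at -0.99, KRTAP2-3 at -3.61 and ABCC9 at -5.02. Among these raised genes, ABCB1 and its neighbor were higher in Du145-CbzR and the others in Du145-DtxR. Of genes lowered in both, CDH1 differed by -0.97, TXNIP by -4.94 from its counts (counting interval -10.3 to -2.34) and LGSN by 3.91 (1.23 to 9.29).

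Of the genes that moved in opposite directions, ARMCX2 was at least 863-fold and ACP7 at least 256-fold higher in Du145-DtxR than in Du145-CbzR, MMP16 differed by -7.77 from its counts (-10.8 to -5.91) and MYEOV by -6.43. In the reverse direction SLFN14 was at least 218-fold and AADAC at least 114-fold higher in Du145-CbzR, BMP5 differed by 10.74, FMN2 by 10.86 from its counts (8.38 to 16.2) and CDHR1 by 7.33.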

How the results depend on the processing

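With a mean of at least 1 CPM required, the average gave 337 higher and 1114 lower genes, Du145-CbzR 406 higher genes, and 126 higher and 390 lower genes moved the same way in both lines. With the 4 resistant libraries as 1 group the average gave 100 and 303, with a formal test against a 2-fold change 197 and 891, and with no fold limit 4913 and 5705. DESeq2 gave 26 lower genes of similar size, and of the 68 genes of similar size and the 822 moved the same way it kept 46 and 591. A margin of 1 gave 78 higher and 142 lower genes of similar size, and a margin on the estimate alone 91 and 210. With 1 library left out at a time, the average gave 492 to 531 higher and 1653 to 1919 lower genes, 179 to 215 and 544 to 633 moved the same way, and 21 to 33 and 31 to 49 were of similar size. For siBRPF1 the range was 64 to 106 higher and 410 to 580 lower DEGs.

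As 1 group, 8 gene averages changed sign because their lines lie far apart, among them ARMCX2 2.71, ACP7 2.30, BMP5 2.49, FMN2 2.46, AADAC 2.29, CDHR1 2.21 and ERAP2 0.0053. Of 117 named-gene calls lost over all settings, 92 were lost there, out of 171 named genes, of which 71 were unchanged. In the other settings 0 averages changed sign. The replicate block gave 529 higher and 1756 lower genes on average, 188 and 601 moved the same way, 26 and 44 of similar size, and 85 and 542 for siBRPF1. Libraries with the same number correlated at -0.021, 0.085 and 0.032 in the resistance table, so those lines share little more than a number. In the siRNA table they correlated at 0.059, 0.17 and 0.34, and libraries with unlike numbers at -0.32 to 0.20. The main siRNA fit left the replicate number out. Without mitochondrial transcripts, added after seeing the data, similar-size genes numbered 25 and 46. The alternative pseudocount for TPM values was not run because no table holds TPM. Low counts widen the interval of the line difference and so limit which genes can be called of similar size.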

Other observations

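Some averages past the threshold came almost wholly from 1 line. NDRG1, a stress and differentiation gene induced by hypoxia, had 142 and 147 CPM in Du145-P, 0.809 and 0.554 CPM in Du145-DtxR and 71.8 and 72.8 CPM in Du145-CbzR. SLC2A3, the glucose transporter GLUT3, had 61.6 and 57.7 CPM in Du145-P, 0.919 and 0.517 CPM in Du145-DtxR and 93.9 and 93.1 CPM in Du145-CbzR. DAPK1, a death-associated kinase, had 26.6 and 26.9 CPM in Du145-P, 0 counts in Du145-DtxR, at least 484-fold lower, and 19.4 and 21.6 CPM in Du145-CbzR. These 3 were near or at 0 in Du145-DtxR only. SLFN11, a helicase-like protein that blocks stalled replication forks, was near 0 in Du145-CbzR instead, with 41.3 and 39.4 CPM in Du145-P, 29.96 and 31.1 CPM in Du145-DtxR and 0 and 0.0325 CPM in Du145-CbzR.

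Near ABCB1 on chromosome 7, ELAPOR2, a membrane protein, had 46 and 43.5 CPM in Du145-P, 26.2 and 25.5 CPM in Du145-DtxR and 345 and 332 CPM in Du145-CbzR. CROT, a peroxisomal carnitine acyltransferase, had 10.8 and 10.9 CPM in Du145-P, 11.6 and 11 CPM in Du145-DtxR and 64.6 and 64 CPM in Du145-CbzR. DMTF1, a transcription factor that binds the ARF promoter, had 77.6 and 73 CPM in Du145-P, 71.7 and 72.6 CPM in Du145-DtxR and 342 and 306 CPM in Du145-CbzR. The levels of all 3 in Du145-CbzR were far above the other libraries, and ADAM22, in the same stretch, was lowest there, with 81 and 77 CPM in Du145-P, 50.3 and 51.5 CPM in Du145-DtxR and 28.7 and 26.8 CPM in Du145-CbzR. These tables hold RNA only, and gene copy number was not analysed here.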
